A study of Mus musculus with 7 samples.

Results

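The regulators of multiciliated cell formation form a set of 10 genes, Foxj1, Gmnc, Mcidas, Ccno, Myb, Trp73, Rfx2, Rfx3, Rfx4 and Deup1, chosen by symbol from 32285 genes counted in single cells of the mouse ventricular-subventricular zone (V-SVZ), the stem cell niche in the wall of the lateral ventricle. The libraries comprised 3 controls (Prdm16flox/flox mice without Cre, given in the labels as Prdmflox/flox), 3 Prdm16 cKO libraries (hGFAP-Cre+/-; Prdm16flox/flox) and 1 Prdm16-Vcam1 DKO library (hGFAP-Cre+/-; Prdm16flox/flox; Vcam1flox/flox), so that all mice carried floxed Prdm16. Each library pooled the dissociated V-SVZ of 2 to 3 mice aged 31 to 33 days. The hGFAP-Cre transgene is active in radial glia and astrocytes, and ependymal cells and neural stem cells (NSCs) both descend from radial glia. After removal of barcodes with fewer than 500 or more than 7000 genes or over 10% mitochondrial counts, 43346 of 65049 cells were kept, among them 2768 ependymal-like and 5396 NSC-like cells.

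Ependymal cells line the ventricle and beat many motile cilia, each built on its own basal body, whereas NSCs carry a lone primary cilium. Gmnc (GemC1) and Mcidas (multicilin), relatives of geminin, act with E2F factors at the top of the programme and switch on Trp73, Myb, Ccno, Foxj1 and Deup1. Deup1 is a structural protein of the deuterosome, on which centrioles are multiplied, and Ccno is a cyclin-like protein needed for that step, so both are known mainly from cells that are still making centrioles. Foxj1, a forkhead factor, and the Rfx factors turn on the genes of the motile axoneme, and Rfx4 is also known from neural progenitors and astroglia.

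Positions are those of GRCm38 in the GENCODE vM21 annotation, where all members are protein coding. Foxj1 is at chr11:116330704-116335399, Gmnc at chr16:26913553-26991652, Myb at chr10:21124935-21160984 and Trp73 at chr4:154056253-154140208, each on the minus strand. Rfx2 is at chr17:56775897-56831013, Rfx3 at chr19:27761721-28011166 and Deup1 at chr9:15559864-15627933, likewise on the minus strand, and Rfx4 is at chr10:84756062-84906538 on the plus strand. Ccno (chr13:112987802-112990777) and Mcidas (chr13:112993845-113000394) are neighbours on the plus strand, separated by 3067 bases.

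Rfx proteins bind the X-box, a mirrored motif, so the 250 bases before the start of each member were searched for its core (GTNNCC and GGNNAC, 2 bases apart) and for an arm of it, GTTGCC, on both strands. Of 9 members with a RefSeq promoter entry (13 entries, GRCm38.p6), Ccno and Deup1 held the core, which 1.57% of 32851 promoters hold. The arm alone stood before Mcidas and Rfx2 and is held by 10.4% of promoters. It also lies inside the core of Ccno and of Deup1. The 4 windows of 30 bases are shown 5′ to 3′ on the strand of the gene, since they place the motif of 1 group of regulators beside the others, with the motif in capitals.

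Ccno, chr13:112987575-112987604, plus strand: gggctgcgGTTGCCACGGTGACgacagacg
Deup1, chr9:15627912-15627941, minus strand: gaggccgcGTCTCCATGGCAACccactggg
Mcidas, chr13:112993661-112993690, plus strand: gggggaagccagGTTGCCaggttggttaac
Rfx2, chr17:56831107-56831136, minus strand: agcttggtaaccGTTGCCgggcgcaacgcc

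The core began 219 bases before the RefSeq start of Ccno and 87 bases before that of Deup1. For Deup1 the whole core lies within the annotated GENCODE gene, which begins upstream of the RefSeq start. No window of a member held the forkhead motif TGTTTAC (3.17% of promoters), the Myb motif TAACNG (19.8%) was present before Rfx2, Rfx4 and Deup1, and the E2F motif GCGGGAA (3.82%) before Trp73 and Deup1. These motifs were chosen after the sequences were seen, and a match of letters says nothing about binding.

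Several libraries stood apart in quality. The share of barcodes kept was 70.2% to 74.7% in 5 libraries but 49.8% in cKO library 2 and 47.2% in cKO library 3. Of the ependymal-like cells, 337 (12.2%) carried a barcode that also occurred in another library, from 2.76% in cKO library 3 to 36.9% in control library 2. In the other named types 1.07% to 2.77% of cells did. Of the ependymal-like cells, 1241 (44.8%) held fewer than 2000 UMIs (unique molecular identifiers, 1 for each captured transcript), although these small barcodes held 5.94% of the UMIs. Of the 337 cells 92.3% were such small barcodes. Prdm16 stood at 63.3 to 75.1 CPM (UMIs of a gene per 1000000 UMIs of a cell type in a library) in NSC-like cells of controls and at 46.8 to 55.5 in the cKO libraries. The position of the deleted part relative to the 3′ tags is not known here, so this does not check the deletion. The ependymal-like cluster carried all 10 ependymal markers, none of which is a member, and the members took no part in the clustering. The NSC-like cluster carried all 5 NSC markers and also 8 astrocyte markers. The astrocyte-like cluster carried 8 astrocyte markers as well, but 2 NSC markers.

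Foxj1 marked ependymal-like cells in every library. It stood at 656, 681 and 514 CPM in control libraries 1 to 3, at 559.8, 763 and 494 CPM in cKO libraries 1 to 3 with 649.6 CPM in the DKO library. The next types were NSC-like cells, at 21.1 to 105.5 CPM, and oligodendrocyte-like cells, at 19.2 to 40.5 CPM, whose ranges overlapped each other and lay apart from the ependymal range. All other named types stayed at 19.2 CPM or less. Of the 13830 Foxj1 UMIs in ependymal-like cells, 89.2% lay in 1006 cells with at least 5.

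**Figure D1:**
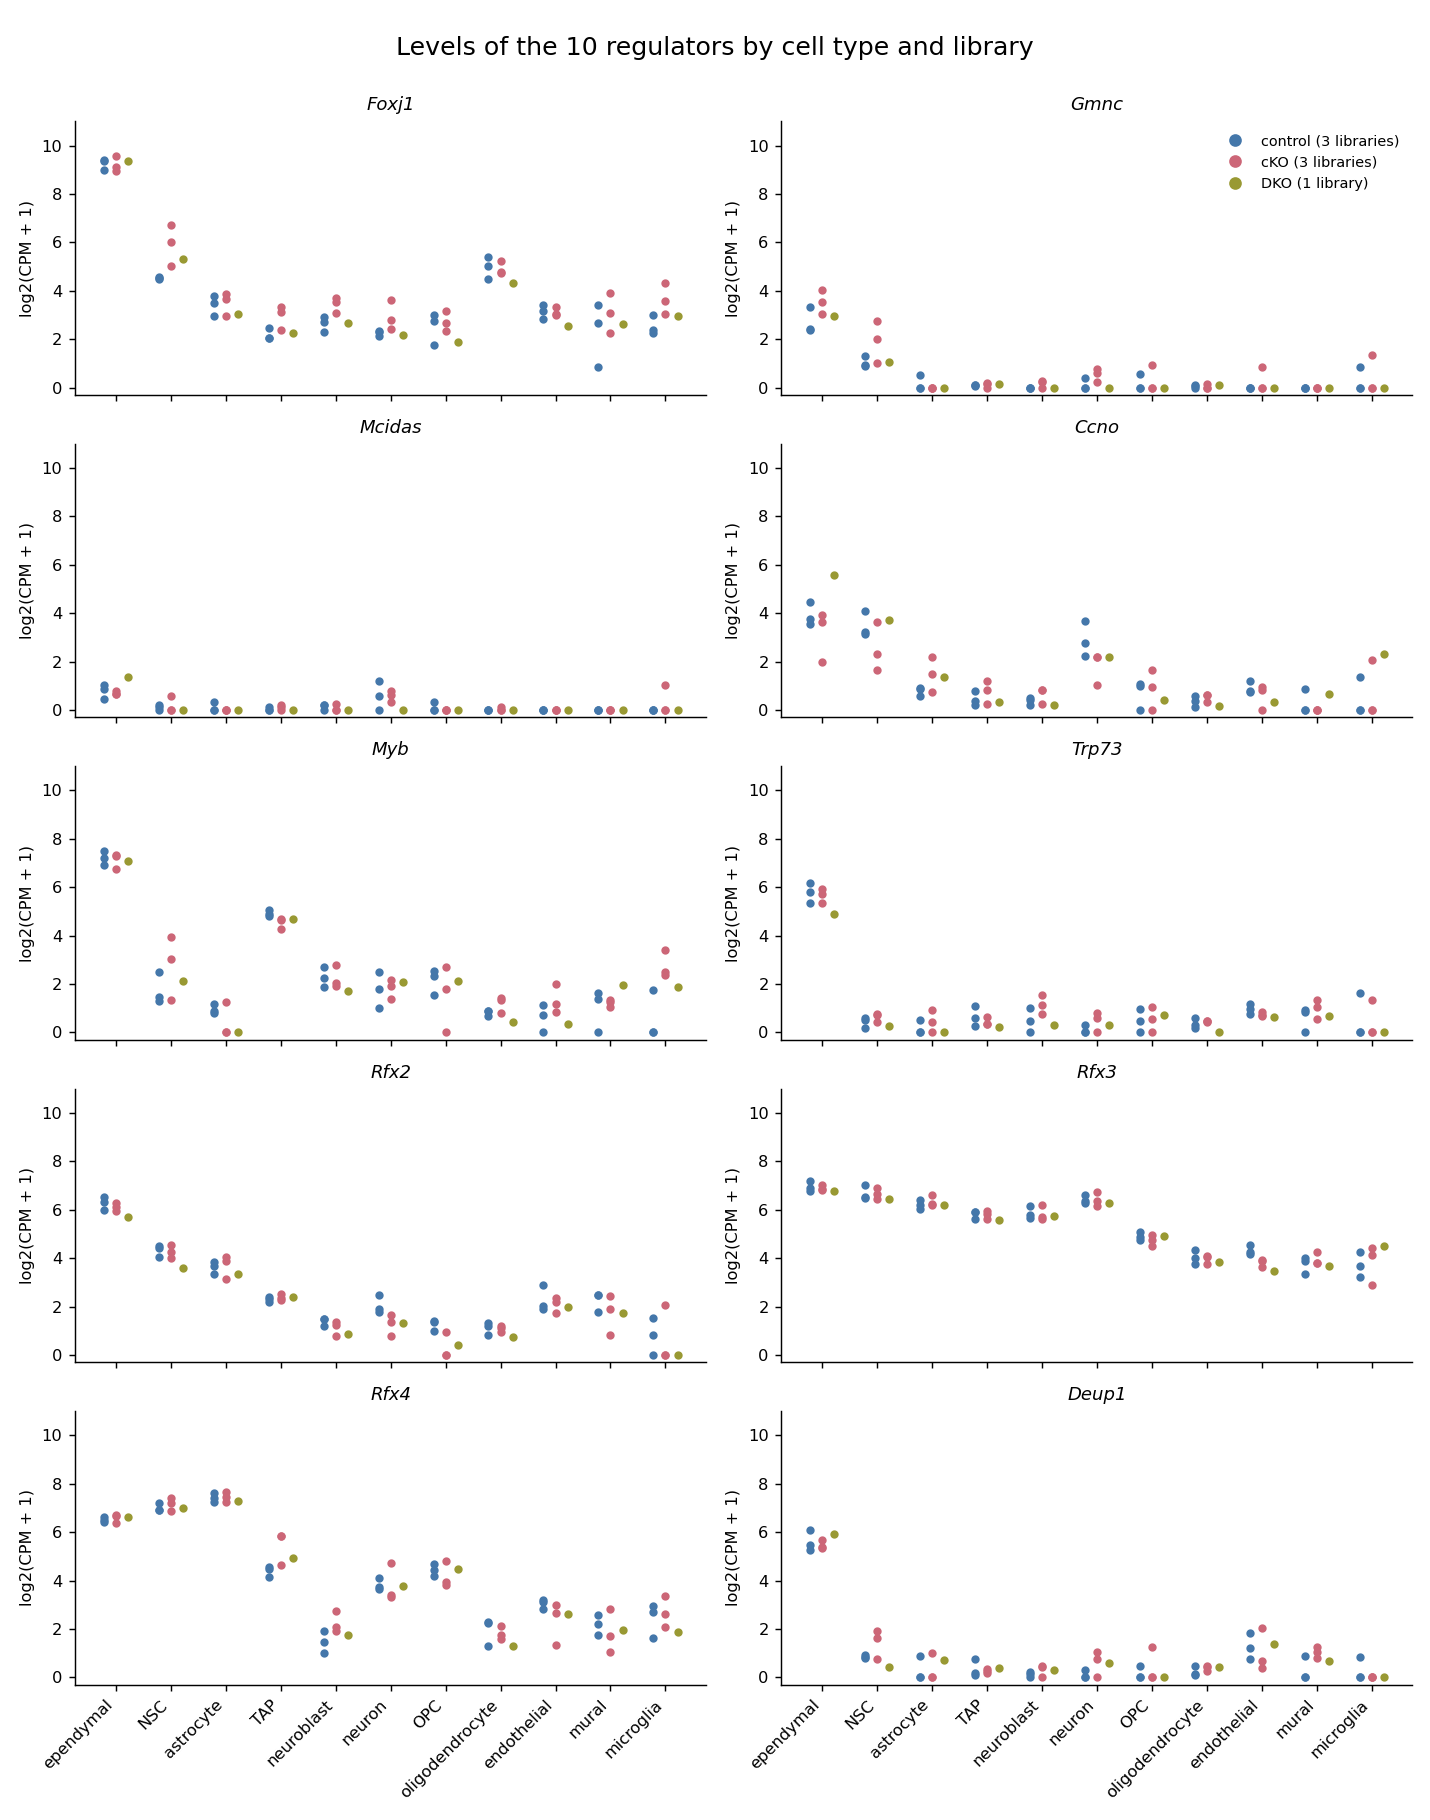
Level of each of the 10 regulators, as log2(CPM + 1) on the vertical axis, in 11 cell types on the horizontal axis, with 1 point per library (blue control, red cKO, green DKO). Foxj1, Myb, Trp73, Rfx2 and Deup1 are highest in ependymal-like cells in every library, Rfx3 is spread over many types, and Rfx4 is highest in astrocyte-like cells.

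Trp73, the p53 relative, and Deup1 were found mainly in ependymal-like cells. Trp73 stood at 39.3 to 72.1 CPM in the ependymal-like cells of controls, at 39.6 to 59.8 in the cKO libraries and at 28.7 in the DKO library, against at most 2.08 CPM in any other type. Deup1 stood at 37.1 to 66.5, 39.6 to 49.9 and 59.7 CPM in the same groups, against at most 3.13 CPM elsewhere. In both genes 87.0% of the UMIs in named types lay in ependymal-like cells, a share that also depends on how many cells of each type were captured.

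Myb, a factor of the cell cycle that multiciliated cells reuse, was also expressed outside the ependymal-like cells. In ependymal-like cells it reached 181, 146 and 120.4 CPM in the controls, 162, 155.5 and 107 CPM in the cKO libraries and 135.5 CPM in the DKO library. Transit amplifying progenitor (TAP)-like cells, the dividing progenitors of the niche, followed at 18.5 to 32.0 CPM, apart from ependymal-like cells above and from every other type below. For shares at equal depth, cells of at least 2000 UMIs were thinned to that number, and smaller cells were left out of every thinned share. Thinned in this way, Myb was found in 22.9% of ependymal-like, 4.95% of TAP-like and 0.146% of endothelial-like cells.

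The Rfx members fell into different patterns. Rfx2 stood at 51.1 to 90.9 CPM in ependymal-like cells over all libraries, apart from NSC-like cells at 11.1 to 22.4, which overlapped astrocyte-like cells at 7.80 to 15.4. Rfx3 stood at 109 to 144 CPM in ependymal-like cells and overlapped NSC-like cells (86.0 to 128), but lay above neuron-like (69.7 to 106.5) and astrocyte-like cells (63.7 to 97.5), which overlapped NSC-like cells. Rfx3 was thus broadly expressed, at 47.1 to 72.3 CPM even in TAP- and neuroblast-like cells. Rfx4 ran the other way, with 149 to 203 CPM in astrocyte-like and 118 to 169 CPM in NSC-like cells, whose ranges overlapped, and 82.8 to 104.7 CPM in ependymal-like cells, apart from both. The name of the set thus covers genes of which Rfx4 was not led by ependymal-like cells in any library.

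Gmnc, Mcidas and Ccno were scarce in these libraries. Gmnc stood at 8.95, 4.18 and 4.29 CPM in the ependymal-like cells of the controls, at 10.4, 15.6 and 7.33 CPM in the cKO libraries and at 6.68 CPM in the DKO library. Mcidas was counted 17 times in all 2768 ependymal-like cells, at 0.390 to 1.57 CPM, and 6 times in NSC-like cells. Ccno reached 21.2, 12.5 and 10.7 CPM in the controls, 11.6, 2.99 and 14.2 in the cKO libraries and 46.7 in the DKO library, and overlapped NSC-like (2.13 to 16.1 CPM) and neuron-like cells (1.07 to 11.8 CPM). Gmnc in ependymal-like cells overlapped its level in NSC-like cells, at 0.879 to 5.68 CPM, and was at or below 1.56 CPM in every other type.

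Ependymal-like and NSC-like cells of the same library were then compared, since both types come from radial glia. Among the members, 7 of 10 were higher in ependymal-like cells in every library, Foxj1, Gmnc, Mcidas, Myb, Trp73, Rfx2 and Deup1, though Mcidas only on 17 against 6 UMIs in all, where 23.4% of 18068 genes with at least 10 UMIs in both types together were. Rfx4 was lower in ependymal-like cells in 7 of 7 libraries, as were 26.8% of those genes. Ccno and Rfx3 were higher in 6 of 7. All libraries enter the comparison of types only as a description, because the types were defined by clustering the same cells.

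The size of the difference varied widely between members. The within-library ratio of ependymal-like to NSC-like CPM had a median of 17.5 for Foxj1 (7.23 to 31.1 over the libraries), 40.9 for Myb (7.55 to 103.8) and 4.76 for Gmnc (2.41 to 10.0). For Rfx2 it ran from 3.35 to 4.58, and the medians were for Ccno 1.40 (0.782 to 3.89), for Rfx3 1.26 (0.960 to 1.30) and for Rfx4 0.719 (0.558 to 0.853). For Deup1 it ran from 14.2 to 89.0 in the control and cKO libraries, on 4 to 22 UMIs in NSC-like cells, and the DKO library held 3. Trp73 and Mcidas had too few UMIs in NSC-like cells for ratios per library. Over all libraries together they were 112 (95% exact interval 71.1 to 186) and 5.54 (2.08 to 17.2) times higher per UMI in ependymal-like cells, where the intervals cover counting error only.

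**Figure D2:**
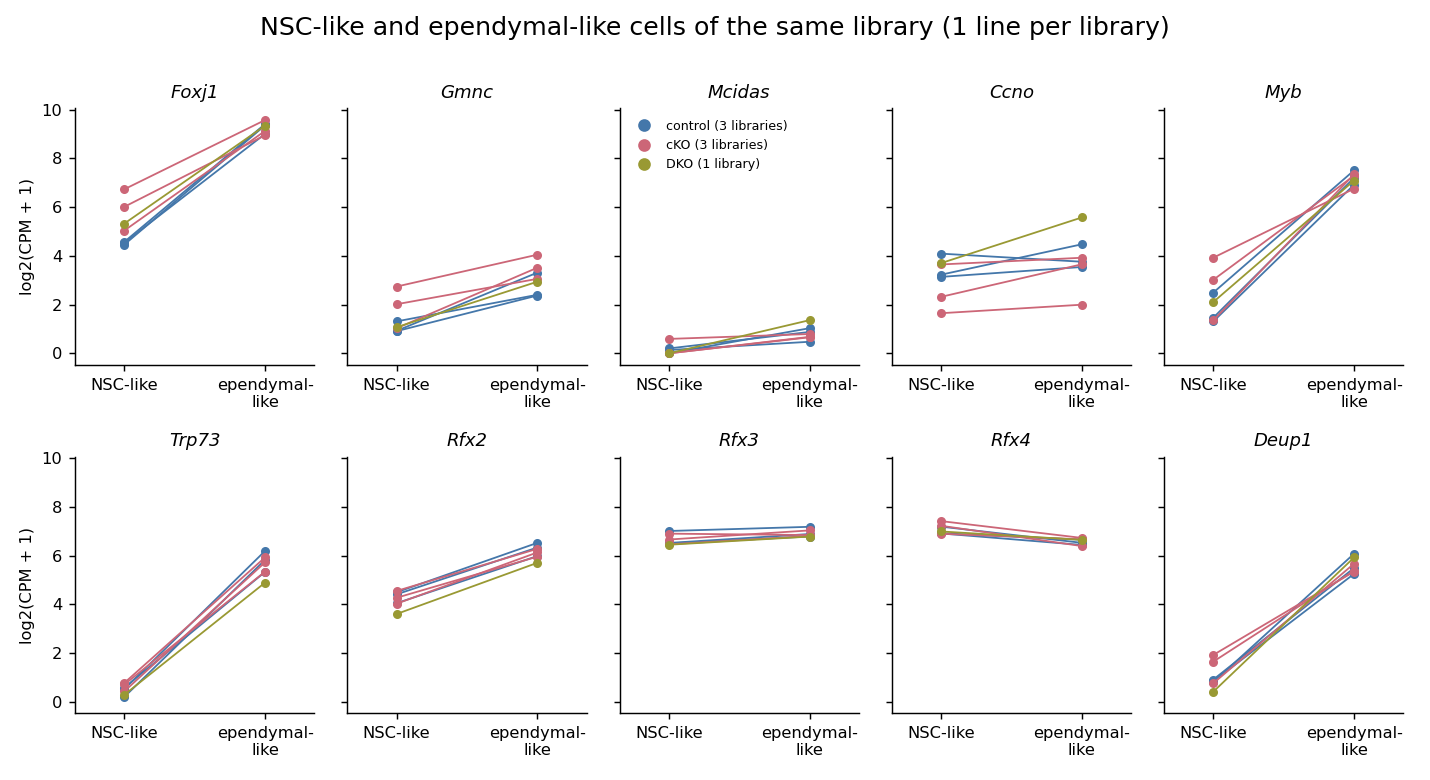
Level of each regulator, as log2(CPM + 1), in NSC-like (left) and ependymal-like cells (right) of the same library, joined by 1 line per library. Lines rise in every library for Foxj1, Gmnc, Mcidas, Myb, Trp73, Rfx2 and Deup1 and fall in every library for Rfx4.

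Small ependymal-like barcodes held less of each regulator per UMI. Those under 2000 UMIs had Foxj1 at 415 CPM against 587 in the larger ones, Myb at 71.5 against 143 and Gmnc at 2.81 against 7.71. Ependymal markers outside the set were also lower there. Tmem212 stood at 1303 against 1845 CPM, Rarres2 at 2327 against 3221 and Ccdc153 at 1547 against 1779. Without the small barcodes the median ratios of ependymal-like to NSC-like cells were 17.7 for Foxj1, 42.6 for Myb and 5.32 for Gmnc. Without the barcodes shared between libraries the ratios were 17.4, 40.2 and 4.95. The count of members higher in every library was 7 in both cases. Clustered without integration, the medians moved to 28.5 for Foxj1, 82.6 for Myb and 2.88 for Ccno, and no member was lower in ependymal-like cells in every library.

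Foxj1 was found in 66.7% of ependymal-like cells (exact 95% interval 64.9% to 68.4%), Myb in 41.1%, Rfx3 in 40.8%, Rfx4 in 35.7%, Rfx2 in 32.6%, Trp73 in 24.8% and Deup1 in 23.8%. Ccno was found in 7.15%, Gmnc in 5.38% and Mcidas in 0.542%. These shares follow the depth of a cell as well as its level.

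The regulators were found together in the same ependymal-like cells. Among the 1527 ependymal-like cells with at least 2000 UMIs the median was 5 members, and 853 cells (55.9%) held 5 or more. Of 5290 such NSC-like cells, 55 (1.04%) held 5 or more, of 4790 TAP-like cells 7 did and of 4908 oligodendrocyte-like cells 3 did. No cell of the other 7 types held more than 4. The number of members found in a cell rises with its UMIs, and the types were not matched for depth.

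Among ependymal-like cells of at least 2000 UMIs, those with a UMI of Gmnc held each other member more often than all such cells. Of the 145 such cells with Gmnc, 90.3% had Myb, 64.1% had Deup1 and 60.7% had Trp73, where 68.4%, 40.5% and 41.8% of all cells of at least 2000 UMIs did. Of the 15 with Mcidas, 73.3% had Deup1, but 53.3% had Rfx2 and 60.0% had Rfx4, near the 55.3% and 59.2% of all. Cells with more UMIs in all have more of every gene, and these shares were not corrected for it.

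**Figure D3:**
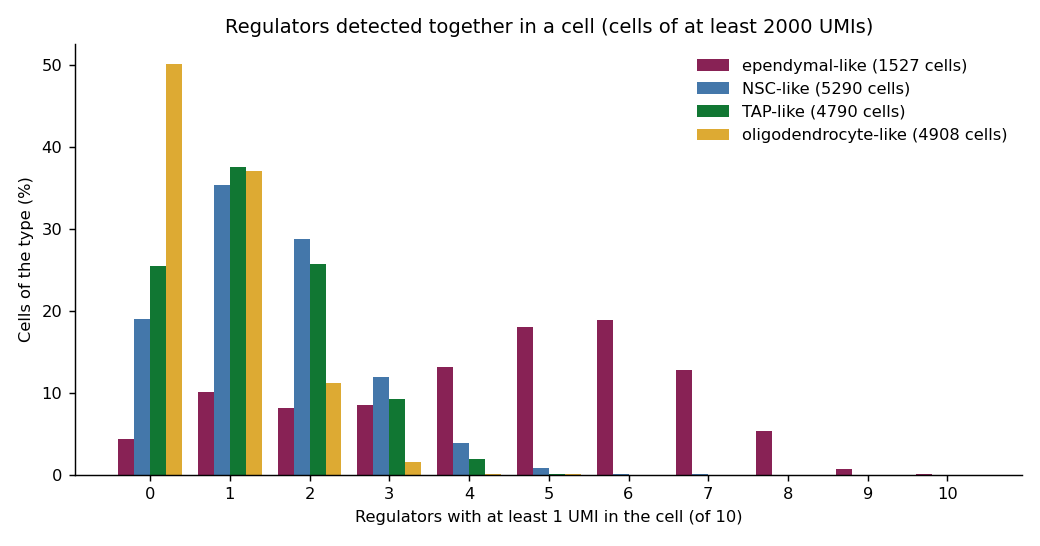
Share of cells (vertical axis, percent of the type) by the number of the 10 regulators with at least 1 UMI in the cell (horizontal axis), for cells of at least 2000 UMIs. Ependymal-like cells spread around a median of 5, whereas NSC-like and TAP-like cells have a median of 1 and oligodendrocyte-like cells of 0.

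For each member the genes whose level ran most like its own across 77 sums of 11 types and 7 libraries were found. By Pearson's r of log2(CPM + 1), Foxj1 was followed by Gm41349 (0.92), Spef2 (0.92) and Gm42788 (0.91), Gmnc by Cfap43, Ccdc40 and Daw1 (0.93, 0.92 and 0.92) and Deup1 by Tekt3, Ccdc81 and Gm11523 (each 0.95). Trp73 was followed by Gm31107, Glipr1l1 and Ldlrad2 (0.96 each), Rfx2 by B9d1, Ccdc114 and Wdyhv1 (0.93, 0.91 and 0.91) and Ccno by Drc1, Kif27 and 4933407L21Rik (0.84, 0.83 and 0.82). Mcidas was too scarce for this, with no type above 5 CPM. Myb was followed by Nudc (0.92), Efcab11 and Tchp (0.88 each), Rfx3 by Zcchc18, Strbp and 1500009C09Rik (0.91, 0.91 and 0.90) and Rfx4 by Arhgef26, Ntrk2 and 2810459M11Rik (0.94, 0.93 and 0.93). The 77 sums share libraries, and sums of different types from a library share its depth, so these values are a description.

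Other genes of the programme were read from a list of 56. All 14 axonemal and late ciliary genes were higher in ependymal-like than in NSC-like cells in every library, as were 3 of 4 genes of basal body docking, 8 of 15 of centriole assembly and 3 of 5 cell cycle genes. In all, 33 of the 56 were higher in every library and 5 (E2f5, Trp53, Rfx7, Foxj2 and Cdk2) were lower in every library. Of genes with at least 10 UMIs in both types together, 23.4% and 26.8% were. From the list, 1 of 6 genes of E2F factors and their partners was higher in every library. It was the partner Tfdp1, and no E2F gene itself was. Of 3 other Rfx genes 1, Rfx1, was higher in every library. Among genes with a UMI in NSC-like cells, the largest ratios of mean CPM were those of Spata18 (146), Fbxo43 (119, against a mean of 0.0503 CPM in NSC-like cells, so that its size is uncertain), an inhibitor of the anaphase-promoting complex, Ccdc78 (67.8), a deuterosome protein, Spag6l (36.7), Fam183b (35.3) and Rsph4a (32.8), a radial spoke protein. The forkhead gene Foxn4, at 1.25 CPM in ependymal-like and 0 in NSC-like cells, has no ratio. Cdt1, which licenses replication origins, and geminin (Gmnn), its inhibitor, were highest in TAP-like cells and in no case higher in ependymal-like cells of every library. Cdc20b, the neighbour of Mcidas and Ccno that is expressed with Deup1 in cells making centrioles, was near 0 in ependymal-like cells (0.0535 CPM on average).

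The first question of genotype was whether ependymal-like cells of the cKO express these regulators differently. None of the 9 members tested was called by edgeR's quasi-likelihood test (adjusted p under 0.05, which 0.144% of 13901 genes passed), and DESeq2 called none (0.734% of genes). At an unadjusted p under 0.05 stood 1 member, against 8.51% of genes. Mcidas fell below the expression filter. Each p reflects the spread between libraries, each a pool of mice.

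The estimates lay close to 0 for the abundant members. The log2 fold change, cKO minus control, was 0.04 (standard error 0.20) for Foxj1, -0.02 (0.17) for Myb, -0.03 (0.20) for Trp73 and -0.0024 (0.14) for Rfx3. It was -0.10 (0.15) for Rfx2, 0.12 (0.15) for Rfx4 and -0.12 (0.19) for Deup1. The directions of these small estimates are not stable, since the sign of 6 of them, Rfx4 excepted, turned under at least 1 alternative. The scarce members had wider errors, with -0.43 (0.41) for Ccno, which turned to 0.72 with at most 5% mitochondrial counts, and 0.89 (0.37, unadjusted p = 0.0323, adjusted p = 0.510 by edgeR) for Gmnc. The median over the 9 members was -0.02, beside 0.00 over all genes tested.

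In no member did the 3 cKO and 3 control libraries separate in ependymal-like cells (0 of 9, against 12.7% of genes), and for Gmnc cKO library 3 lay below control library 1. Without the shared barcodes the log2 fold change of Foxj1 was 0.04 and that of Gmnc 0.95, and without cells under 2000 UMIs they were 0.04 and 0.85. Of the pathway list, 54 genes were tested and none was called by either tool. Summed choroid plexus markers in ependymal-like cells ranged from 548 to 2539 CPM in controls, from 159.5 to 695 in the cKO libraries and stood at 3262 in the DKO library. Of 15 marker lists 4 did not overlap between cKO and control in these cells. Mural markers were higher, at 735 to 919 CPM against 398 to 593, and lower were those of oligodendrocytes (181 to 332 against 428 to 667), TAPs (32.9 to 62.6 against 64.8 to 94.5) and fibroblasts (15.1 to 30.7 against 37.2 to 41.5). The part of these lists in the values was not tested.

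**Figure D4:**
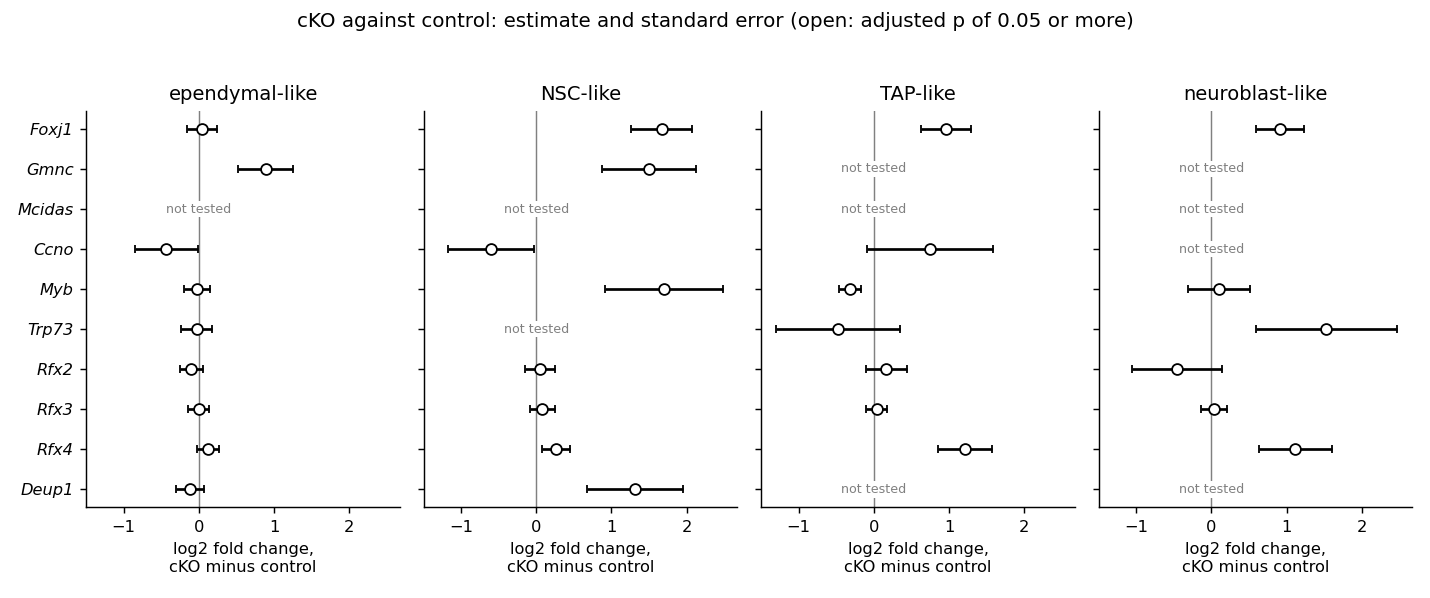
Log2 fold change of each regulator (horizontal axis, cKO minus control) with its standard error as the bar, in ependymal-, NSC-, TAP- and neuroblast-like cells. All symbols are open because no adjusted p fell under 0.05. In ependymal-like cells all estimates but those of Gmnc and Ccno lie within 0.12 of 0, whereas Foxj1 in NSC-like cells is at 1.67.

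In NSC-like cells the question was the same. Foxj1 stood at 21.1, 22.9 and 22.3 CPM in control libraries 1 to 3, at 31.9, 105.5 and 63.7 CPM in cKO libraries 1 to 3 and at 39.2 CPM in the DKO library. All cKO libraries lay above all controls, cKO library 1 by the least. The log2 fold change was 1.67 (standard error 0.41, unadjusted p = 0.00458), but the adjusted p was 0.135 in edgeR, so Foxj1 was not called. It was the member of 8 tested whose libraries did not overlap, as for 17.0% of genes.

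The call of Foxj1 in NSC-like cells changed with the method and with 1 library. DESeq2 called it (1.69, adjusted p = 2.5e-05), with 3.95% of genes called against 0.153% in edgeR. Without cKO replicate 1, edgeR called Foxj1 (2.01), Gmnc (1.93) and Myb (2.22), in a fit that called 11.5% of genes. Without cKO replicate 2 the log2 fold change of Foxj1 was 1.23 and that of Gmnc 0.98, and without cKO replicate 3 those of Myb and Deup1 were 0.66 and 0.69, and none of these was called. When libraries were clustered without integration, 15 cells of cKO library 2 and 22 of cKO library 3 were left in the NSC-like cluster and the log2 fold change of Foxj1 was 0.20. There the astrocyte-like cluster took up 452 and 1818 cells of these libraries and Foxj1 (1.91, adjusted p = 0.0086) and Gmnc (4.40, adjusted p = 0.0264) were called in it by edgeR, as were 5.99% of genes.

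The other members in NSC-like cells were less even between libraries. Gmnc stood at 0.897, 0.879 and 1.48 CPM in the controls, at 1.04, 5.68 and 3.04 in the cKO libraries and at 1.10 in the DKO library (log2 fold change 1.50, standard error 0.62, adjusted p = 0.309 by edgeR). Myb stood at 4.63, 1.76 and 1.48 CPM, at 1.56, 7.11 and 14.2 CPM and at 3.31 CPM (1.70, standard error 0.78, adjusted p = 0.400). In both, cKO library 1 lay within the control range and cKO libraries 2 and 3 above it. Deup1, with at most 22 UMIs in a library, had a log2 fold change of 1.31 (0.64), Ccno of -0.60 (0.57), and Rfx2, Rfx3 and Rfx4 had 0.05, 0.08 and 0.26. Clustered without integration, the sign turned for Gmnc (-0.47), Myb (-1.17), Rfx2 (-0.50), Rfx3 (-0.054) and Rfx4 (-0.17). At an unadjusted p under 0.05 stood 2 of 8 members, against 13.8% of genes, and the median over the 8 was 0.79, beside -0.01 over all genes. Gmnc and Deup1 passed the filter on low counts only through cKO libraries 2 and 3, where they were highest. The count and the median therefore say nothing about a shift of the members as a set.

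The axonemal genes of the list had mostly positive estimates in NSC-like cells, and none passed the test. Of 13 tested, 12 had a positive log2 fold change, 9 of them at an unadjusted p under 0.05 (13.8% of all genes in either direction), with a median of 0.86. None was called by edgeR, and 7, all of them positive, were called by DESeq2 (3.95% of all genes). From the genes named above for their ependymal ratio, Fam183b had 2.29 (standard error 0.51, adjusted p = 0.122 by edgeR) and Rsph4a 1.31 (0.48, adjusted p = 0.276). None of 13 centriole assembly genes tested was called by either tool, with 2 positive and 1 negative at an unadjusted p under 0.05. Axonemal genes had mostly positive estimates in other types too. In neuroblast-like cells 13 of 13 tested were positive (median 0.81), 2 of them at an unadjusted p under 0.05 (8.76% of all genes). In TAP-like cells 12 of 13 were positive (median 0.28), none of them at that level (7.12% of all genes). Neither tool called any of them in these types.

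Foxj1 in NSC-like cells was spread over many cells with 1 UMI and a few with several. A Foxj1 UMI was found in 10.6%, 19.5% and 14.6% of NSC-like cells of control libraries 1 to 3, in 13.9%, 54.6% and 37.4% of those of cKO libraries 1 to 3 and in 22.9% in the DKO library, with exact 95% intervals of 47.7% to 61.3% in cKO library 2 and 33.8% to 41.2% in cKO library 3. Thinned to 2000 UMIs per cell, the shares were 3.81%, 5.09% and 3.52%, then 4.15%, 18.2% and 10.3%, and 6.39%. cKO libraries 2 and 3 stayed highest at equal depth. The share in cKO library 1 lay within the range of the controls both before and after thinning. Over all libraries together, endothelial-, mural- and microglia-like cells, which should lack the gene, showed 1.60%, 1.17% and 1.56% after thinning. Before it they showed 3.99%, 4.40% and 3.57%, with medians of 4304, 5309 and 4426 UMIs per cell, against 7304 in NSC-like cells. Foxj1 in microglia-like cells was higher in every cKO library than in every control, whereas the groups overlapped in endothelial- and mural-like cells.

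Cells with at least 5 Foxj1 UMIs numbered 55 of 5396 NSC-like cells (1.02%) and held 20.2% of their Foxj1 UMIs. They numbered 1, 0 and 3 in the controls, 2, 17 and 20 in the cKO libraries and 12 in the DKO library. The 0 of 436 cells in control library 2 allows a share of up to 0.688% (3 counts of the total), which covers counting error only. In these 55 cells the median was 21120 UMIs. None was marked as a doublet, but only 22 of 4328 NSC-like cells without a Foxj1 UMI were, so the 0 decides nothing. Of the 55 cells 96.4% held Gfap, 76.4% the axonemal gene Rsph1 and 61.8% Dnah9. The cells without a Foxj1 UMI, at a median of 6749 UMIs, had these in 46.5%, 16.7% and 3.00%. The NSC marker Thbs4 went the other way, with 27.3% of the 55 cells against 60.2%. Ccdc153 and Tmem212, ependymal markers, were found in 30.9% and 27.3% of the 55 cells, against 8.71% and 8.23%. These shares are taken over all libraries together and are not matched for depth, library or genotype. Most of the 55 cells came from cKO and DKO libraries. Ependymal-like cells with at least 5 Foxj1 UMIs, at a median of 19226 UMIs, had Ccdc153 in 99.6% and Gfap in 38.0%.

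**Figure D5:**
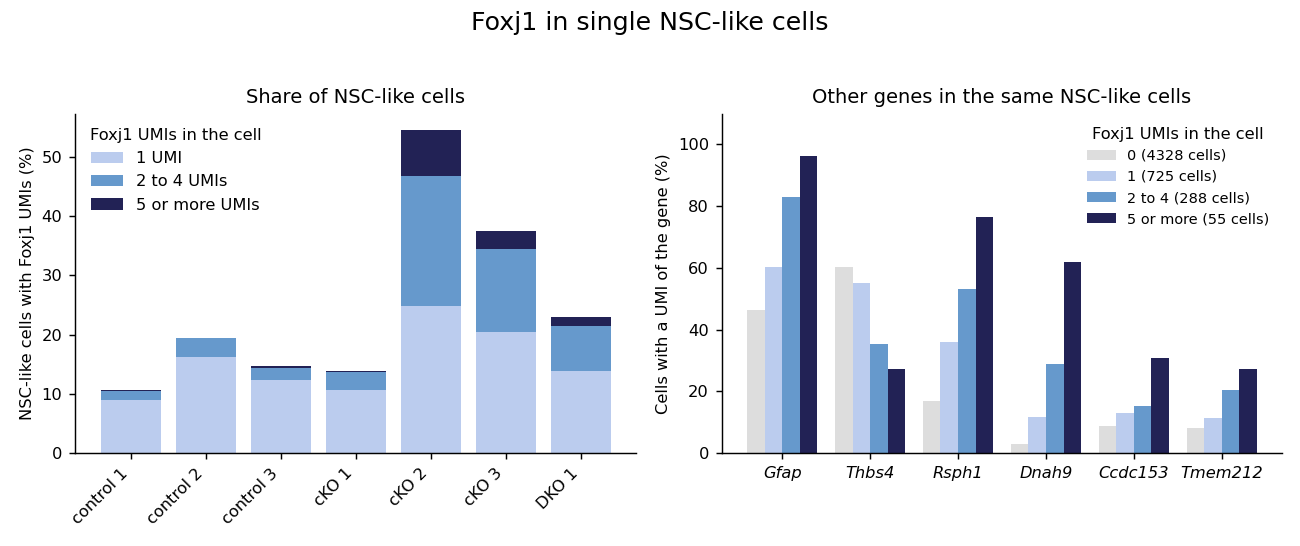
Left, share of NSC-like cells (percent) with 1, 2 to 4 or 5 and more Foxj1 UMIs in each library, where cKO libraries 2 and 3 are highest with 54.6% and 37.4% in all. Right, share of NSC-like cells with a UMI of 6 other genes, by the number of Foxj1 UMIs in the cell, where Gfap, Rsph1 and Dnah9 are more frequent, and the NSC marker Thbs4 less frequent, in cells with more Foxj1. The median cell also holds more UMIs in each bin (6749, 9180, 14123.5 and 21120), and the shares are not matched for depth, library or genotype.

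Levels of ependymal markers, which free RNA of ependymal cells would carry, are given beside these values. Ependymal-like cells had 32.7 Foxj1 UMIs per 100 Ccdc153 UMIs, endothelial-like cells 38.6 and microglia-like cells 39.2. Neuroblast-like cells had 39.0 in all, but 36.9 to 106 in the control libraries, 33.9 to 65.5 in the cKO libraries and 24.7 in the DKO library. TAP-like cells ranged from 46.9 to 108 in controls and from 46.2 to 113 in the cKO libraries, and astrocyte-like cells from 48.3 to 480.0 and from 51.5 to 136. In NSC-like cells the ratio was 278, with 135 to 650.0 in the controls, 274 to 803 in the cKO libraries and 255 in the DKO library, and in oligodendrocyte-like cells it was 392. The 10 ependymal markers, none of which was at 0, summed to 278 to 384 CPM in NSC-like cells of controls, 317 to 456 in the cKO libraries and 346 in the DKO library. Rarres2 made up much of that sum, at 130 to 178 CPM in controls and 126 to 145 in the cKO libraries. The ratio of mean CPM, cKO to control, had a median of 1.63 over the 10 markers, with Rarres2 at 0.87 and Mia at 0.40. In neuroblast-like cells the same median was 1.84 and in TAP-like cells 1.21. In NSC-like cells 2 of these markers (Ak7 and Pltp) were higher in every cKO library than in every control and 0 were lower. Of all genes tested, 17.0% did not overlap in either direction. Ccdc153 itself ranged from 3.52 to 16.5 CPM in controls and from 7.81 to 23.2 CPM in the cKO libraries. Of all 15 marker lists 6 did not overlap between cKO and control in NSC-like cells. Astrocyte markers were higher, at 1876 to 2457 CPM against 1674 to 1795, with 1809 in the DKO library. Those of TAPs (18.5 to 42.3 against 44.1 to 60.7), OPCs (35.2 to 39.8 against 46.0 to 63.1), mural cells (88.1 to 112 against 117 to 147), microglia (38.8 to 46.1 against 51.0 to 64.2) and fibroblasts (13.1 to 22.2 against 25.7 to 36.3) were lower. The part of these lists in the level of Foxj1 was not tested.

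Within the libraries counted with Cell Ranger 6.0.1, NSC-like Foxj1 was 21.1 and 22.9 CPM in controls and 31.9 and 105.5 CPM in the cKO libraries, and within those of version 6.1.1 it was 22.3 CPM in the control and 63.7 CPM in the cKO library. With the version as a covariate the log2 fold change was 1.67. The libraries with the highest values, cKO 2 and 3, are also those with the lowest share of barcodes kept, and the part of this in the result was not tested.

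To test the difference between the types itself, the ratio of ependymal-like to NSC-like CPM was compared between genotypes. For Foxj1 it was 23.0 to 31.1 in the controls, 7.23 to 17.5 in the cKO libraries and 16.6 in the DKO library (log2 difference -1.48, two-sided exact permutation test, p = 0.1, the smallest that 3 against 3 libraries allow). No other of the 8 members with enough UMIs separated in this ratio, where 17.5% of 13059 genes did. For Rfx2 the ratio was 3.93 to 4.22 in controls and 3.35 to 4.52 in cKO libraries.

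In TAP-like cells Rfx4 had the largest log2 fold change of the 7 members tested. It stood at 22.5, 17.0 and 21.1 CPM in the controls, at 23.7, 55.9 and 55.8 CPM in the cKO libraries with 29.3 CPM in the DKO library. The libraries did not overlap, though cKO library 1 lay close to the controls. The log2 fold change was 1.21 (standard error 0.36, unadjusted p = 0.0138, adjusted p = 0.595 by edgeR). It was called by DESeq2 (1.24, adjusted p = 0.00248, 0.77% of genes called), by edgeR without the filter on low counts (1.20, 1.12% called) and by edgeR without cKO replicate 1 (1.55, 2.06% called), where the main fit called 0.0% of 14811 genes, 7.12% of which had an unadjusted p under 0.05.

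Markers of NSCs moved with Rfx4 in these cells. The 5 NSC markers summed to 491, 368 and 509 CPM in TAP-like cells of controls, to 630.1, 685 and 993 CPM in the cKO libraries and to 604 CPM in the DKO library, and none was at 0. Of the other 14 marker lists the endothelial one did not overlap either (26.7 to 46.5 CPM in controls, 15.7 to 24.5 in the cKO libraries). Their part in the result was not tested. Myb went the other way and did not overlap either, with 32.0, 28.4 and 27.5 CPM in controls, 24.1, 25.0 and 18.5 CPM in the cKO libraries and 25.0 CPM in the DKO library (log2 fold change -0.32, standard error 0.15, adjusted p = 0.702). Foxj1, at 3.13 to 4.44 CPM in controls and 4.24 to 9.01 in the cKO libraries, had a log2 fold change of 0.96 (0.33, adjusted p = 0.584 by edgeR), and its thinned share of TAP-like cells, 0.898%, was below that of endothelial-like cells. Of the 7 members tested 3 stood at an unadjusted p under 0.05, and 2 of 7 did not overlap, against 11.2% of genes.

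In neuroblast-like cells 6 members were tested and none was called by edgeR (0.029% of 13788 genes called) or DESeq2 (0.479%), while 2 had an unadjusted p under 0.05 (8.76% of genes). Foxj1 was at 3.93, 5.45 and 6.65 CPM in controls, at 7.35, 11.9 and 10.5 in the cKO libraries and at 5.37 in the DKO library (log2 fold change 0.91, standard error 0.32, adjusted p = 0.504 by edgeR), and was the member of 6 that did not overlap, against 13.2% of genes. At 3.72% the share of cells with a UMI was at the level of the types that should lack the gene. The ependymal markers summed to 68.2 to 166 CPM in controls and to 101 to 239.9 CPM in the cKO libraries, and TAP markers to 94.1 to 105 CPM and to 33.0 to 87.8 CPM, and their part in the result was not tested. Rfx4, at 0.991 to 2.82 and 2.78 to 5.61 CPM, had 1.11 (0.49, adjusted p = 0.545).

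No member was called in the other 7 types by either tool in the main clustering. The share of genes called by edgeR was 1.28% in astrocyte-like cells, 0.0753% in neuron-like cells and 0.0% in OPC-, oligodendrocyte-, endothelial-, mural- and microglia-like cells, and by DESeq2 1.56%, 0.301%, 0.00799%, 0.0285%, 0.0176%, 0.00889% and 0.0103% in that order. At an unadjusted p under 0.05 stood Ccno in neuron-like cells (log2 fold change -1.13, standard error 0.52), and no member in the other 6 types. The shares of genes at that level were 9.98%, 3.18%, 4.53%, 1.82%, 2.08%, 3.36% and 3.39% in the same order. In neuron-like cells 3 of 6 members did not overlap (7.88% of genes), Foxj1 with 3.38 to 4.08 CPM in controls and 4.28 to 11.3 in the cKO libraries, and Ccno and Rfx2, which were lower in the cKO. In microglia-like cells Foxj1, 1 of 2 members tested, did not overlap either (9.86% of genes), with 3.80 to 7.10 CPM in controls and 7.29 to 19.2 CPM in the cKO libraries, on 2 to 9 UMIs a library. These cells should lack the gene. In endothelial-like cells 1 of 4, Rfx3, was lower in every cKO library (8.24% of genes), and no member separated in astrocyte- (13.9%), oligodendrocyte- (6.63%) or mural-like cells (8.93%). In astrocyte-like cells, where Rfx4 was highest, its log2 fold change was 0.02 (0.18), and in oligodendrocyte-like cells that of Foxj1 was -0.04 (0.25).

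Foxj1 in oligodendrocyte-like cells was found in 1577 of 5279 cells (29.9%, median 17818 UMIs), of which 58 had at least 5 UMIs. Thinned to 2000 UMIs the share was 4.50%, above the 1.17% to 1.60% of endothelial-, mural- and microglia-like cells. Deup1, Trp73 and Gmnc were found in 0.511%, 0.493% and 0.0947% of these cells.

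The DKO library, which has no replicate, was set beside the others without a test. In ependymal-like cells 5 of 10 members lay outside the range of the other 6 libraries, as did 28.5% of 16175 genes with at least 10 UMIs in these cells. Ccno (46.7 CPM against 2.99 to 21.2) and Mcidas (1.57 against 0.390 to 1.05, on 4 UMIs) lay above it, and Trp73 (28.7 against 39.3 to 72.1), Rfx2 (51.1 against 61.1 to 90.9) and Rfx3 (108.8 against 109.0 to 144) lay below it, Rfx3 only just. Without the shared barcodes, and without cells under 2000 UMIs, 4 members lay outside. Foxj1, Gmnc, Myb, Rfx4 and Deup1 lay within. In NSC-like cells of this library Foxj1, at 39.2 CPM, was above the controls and within the range of the cKO libraries.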

How the data were processed

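Dissociated V-SVZ cells, cleared of myelin and debris on an OptiPrep gradient, were captured with Chromium 3′ v3.1 chemistry. The authors deposited raw UMI counts per gene and barcode, made with Cell Ranger (6.0.1 in the file headers of 4 libraries, 6.1.1 in those of 3) against GRCm38/mm10. Libraries held 45758003 to 141353017 UMIs, with medians of 4959.5 to 8317.5 per kept cell, and intervals cover counting error only. The members and gene lists were chosen with earlier results of these data known.

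Cells with 500 to 7000 genes and at most 10% mitochondrial counts were kept. Scrublet (scanpy 1.11.5) marked 949 cells (2.19%), which stayed in, and its threshold failed in control library 1, where the median of the other libraries was used. Cells were integrated and clustered in Seurat 5.3.0 (2000 variable features less 21 members and pathway genes, 30 components, resolution 0.15). A cluster took a name from at least 3 markers found in 10% of its cells at a log2 difference of 1 or more. It stayed without a name if its UMIs were low for its libraries and its top 10 genes held no marker of that type. The same held if its top genes included more markers of another type. Counts were summed by library and type (at least 10 cells) and fitted in edgeR 4.0.16 (filterByExpr, TMM, robust quasi-likelihood, Benjamini-Hochberg at 0.05) with all 7 libraries in 3 groups. DESeq2 1.42.0 (R 4.3.3) served as an alternative, and fits were first tested on simulated data. The 10 members are all named, with 6 genes of the pathway list by the largest ratio of means and 3 genes most like each member. Replicate numbers paired libraries only in oligodendrocyte-, endothelial- and mural-like cells, where every correlation of same-numbered libraries was over 0.1 (0.31, 0.17 and 0.45 in oligodendrocyte-like cells), and no call of a member changed there. Alternatives were DESeq2, no filter, library totals, the replicate block, Cell Ranger version, each library left out, no integration, resolution 0.3, no doublets, at most 5% mitochondrial counts and, added after the data were seen, no shared barcodes and cells of at least 2000 UMIs. Cells in clusters without a name entered no comparison.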

Additional observations from a re-analysis of the deposited data

How the results depend on the processing

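Of 198 counts of members called, 191 kept their value, and of 409 log2 fold changes of members 372 kept their direction and side of the threshold. In NSC-like cells DESeq2 called 1 member, and leaving out each library gave 0 to 3, the most without cKO replicate 1. In TAP-like cells DESeq2 called 1, no filter on low counts 1, and leaving out each library gave 0 to 1. Without integration 2 were called in astrocyte-like cells, 0 members were lower in ependymal-like cells in every library and 3 lay outside the other libraries in the DKO library. With the replicate block 1 member was called in NSC-like cells, Foxj1 (log2 fold change 1.53, adjusted p = 0.0203 by edgeR), in a fit that called 483 genes higher and 112 lower of 14394, where the pairing correlations were 0.24, -0.01 and 0.35, not over 0.1 in every pair, and the numbers were not taken to pair the libraries.

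Thinned to 2000 UMIs, shares were taken over the 1527 ependymal-like cells of at least that depth, not over all 2768. They were 0.982% for Gmnc, 0.262% for Mcidas, 2.49% for Ccno, 22.9% for Myb, 7.73% for Trp73, 13.4% for Rfx2, 19.7% for Rfx3, 16.3% for Rfx4 and 7.86% for Deup1. Before thinning, 68.4% of the same 1527 cells held Myb. The median ratio of ependymal-like to NSC-like CPM moved without integration to 28.5 for Foxj1, 2.88 for Ccno, 82.6 for Myb and 0.85 for Rfx4, and with at most 5% mitochondrial counts to 1.09 for Rfx3.

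Some log2 fold changes turned sign, among them large ones without integration. In ependymal-like cells Foxj1 was -0.027 with library totals, -0.051 with at most 5% mitochondrial counts and -0.17 to 0.14 over the libraries left out. Under the mitochondrial limit Ccno was 0.72 and Deup1 0.18. Rfx3 was 0.00039 in DESeq2, 0.0013 with the replicate block and 0.0033 without doublets. With a library left out, Myb ran from -0.13 to 0.13, Trp73 from -0.22 to 0.13, Rfx2 from -0.22 to 0.0065, Rfx3 from -0.052 to 0.086 and Deup1 from -0.29 to 0.15. In NSC-like cells without integration Gmnc was -0.47, Myb -1.17, Rfx2 -0.50, Rfx3 -0.054 and Rfx4 -0.17. With library totals Rfx2 was -0.045 and Rfx3 -0.017, and with a library left out Rfx2 ran from -0.070 to 0.19 and Rfx3 from -0.036 to 0.20. The cause of these changes was not tested. Depth limits Mcidas most, at 17 UMIs in ependymal-like cells.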

Other observations

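Some cells lay in clusters that took no name. Clusters 4 and 16 held 6 and 7 astrocyte markers, but cluster 4 had few UMIs and no astrocyte marker among its top genes. The top genes of cluster 16 held more markers of another type. Cluster 4, of 2970 cells (1164.5 UMIs in the median cell), had Rfx4 at 116 CPM, Rfx3 at 79.4, Foxj1 at 44.6, Rfx2 at 23.3, Myb at 6.96, Deup1 at 4.35 and Trp73 at 2.39 CPM. Cluster 9, of 1745 cells (1470 UMIs), had Rfx3 at 11.7 and Foxj1 at 8.36 CPM. Cluster 16, of 169 cells (10452 UMIs), had Rfx4 at 78.7, Rfx3 at 70.3 and Foxj1 at 13.0 CPM.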
